A study of Mus musculus with 2 samples.

Results

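The T and NK cells of a PECAM1+ sort of mouse lung are described here, 71 of 16264 cells, from lungs of control mice and of mice injected with melanoma cells, both taken at 6 h. Members were chosen by transcripts of 6 genes, Cd3d, Cd3e and Cd3g of the T cell receptor complex and Nkg7, Ncr1 and Klrd1 of natural killer (NK) cells. A member had unique molecular identifiers (UMIs, each counting 1 captured transcript) of at least 2 of these 6 genes, of at most 1 of the 3 endothelial genes Cdh5, Cldn5 and Egfl7, and none of the B cell gene Cd79a. The rule found 31 of 8468 control cells (0.366%, exact 95% binomial interval 0.249 to 0.519%) and 40 of 7796 metastatic cells (0.513%, 0.367 to 0.698%). These intervals overlap.

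Both libraries came from lungs of C57BL/6 mice with WT genotype. The control mice received PBS through the tail vein, and the metastatic mice received 200000 cells of B16-F10, a mouse melanoma line that lodges in the lung vasculature. The study asks how lung endothelial cells respond to arriving tumor cells, so the sort was made to collect endothelium, and no CD45 gate against leukocytes was described for it. Each library pooled 2 mice, and there was 1 library per group. No test between the groups was therefore possible, and every interval covers counting error only, not the spread between mice.

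T cells recognize antigen through a clonal receptor whose signal is carried by the CD3 chains, while NK cells read activating and inhibitory receptors and kill with perforin and granzymes held in granules. The mouse lung holds many NK cells, most of them in its capillaries, together with T cells that pass through in blood, and NK cells are known to limit the seeding of B16 melanoma in the lung. CD3 chains and NK receptors can occur in the same cell, because CD8 T cells and NKT cells also use NK receptors.

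The rule genes split the members into 3 sets. Cells with a Cd3 gene and no NK gene (the Cd3 set) numbered 8 in the control and 7 in the metastatic library. Cells with both kinds of transcript (the double set) numbered 10 and 17. Cells with NK genes and no Cd3 gene (the NK set) numbered 13 and 16. Pooled, the Cd3 and double sets are called Cd3-bearing cells. They made up 58.1% of control members (39.1 to 75.5%) and 60.0% of metastatic members (43.3 to 75.1%).

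The members held 170503 control and 230719 metastatic UMIs. Their median depth was 5377 and 5487.5 UMIs per cell, near the 5946 and 6132 of endothelial cells, and their median number of detected genes was 1953 and 1920.5. A cell with little RNA can fail the rule, so fewer T or NK cells and less RNA per cell cannot be told apart in their share. At this depth a pool of members with 0 UMIs of a gene allows up to 3 UMIs, which equals 17.6 control and 13.003 metastatic CPM (UMIs of the gene per 1000000 UMIs of the pool).

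The label given to both samples is endothelial cell, and the members do not carry an endothelial profile. Ptprc, which encodes CD45, was detected in 30 of 31 control and 40 of 40 metastatic members at 1918 and 1803 CPM, against 4.70 and 8.15 CPM in endothelial cells. Pecam1, the sorted antigen, was at 99.7 and 82.4 CPM in members, with UMIs in 11 and 17 of them, against 1157 and 1113 CPM in endothelial cells. Epas1, a hypoxia-inducible factor abundant in endothelium and not used by the rule, was at 123 and 95.4 CPM against 2893 and 2666 CPM. The 12 endothelial markers outside the rule summed to 106 control and 84 metastatic UMIs, with a median of 3 and 2 per cell.

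The lists of markers of other cells held few UMIs in most members. In the control members, 10 B cell markers summed to 33 UMIs, 11 monocyte and macrophage markers to 59, 8 platelet markers to 7, 10 epithelial markers to 30, 8 fibroblast markers to 3, 8 neutrophil markers to 1, 8 melanoma markers to 2, and 6 basophil and mast cell markers to 4. In the metastatic members the same lists summed to 23, 287, 68, 53, 12, 1, 7 and 4 UMIs. The dendritic cell list (11 genes, Irf8 among them, which NK cells also express) summed to 112 and 1034 UMIs, and the 6 red blood cell genes to 96 and 1991. Of these higher sums, 220 of the monocyte and macrophage, 858 of the dendritic and 1922 of the red blood cell UMIs came from 2 metastatic cells, and their part in each result is shown by leaving them out.

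The first of these cells met the rule with 1 UMI of Cd3d and 5 of Klrd1 and belongs to the double set. It was the deepest member, with 15160 UMIs. It held 1010 UMIs of the MHC class II genes Cd74 (604), H2-Eb1 (162), H2-Ab1 (146) and H2-Aa (98), where no other metastatic member and no control member had more than 2. It also held 188 UMIs of Cst3, 57 of the chemokine Ccl17 and 68 of Jun, and 0 of Trac, Trbc1 and Trbc2. Its leading genes go against its name as a T or NK cell. The other cell belonged to the NK set, with 72 UMIs of Gzma, and 35.4% of its 5410 UMIs were globin transcripts (1916 UMIs), against at most 9 in any other metastatic member and 10 in any control member. In 2 further metastatic cells of the double set, platelet factor Pf4 was present with 8 and 9 UMIs, and the platelet list with 43 and 16. Results that rest on the first 2 cells are given with and without them.

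Some values chose the members and are given as description. Over the members, Nkg7, a granule membrane protein, had 211 control and 343 metastatic UMIs, Cd3d 81 and 123, Cd3g 75 and 111, Klrd1 (CD94) 75 and 117, Cd3e 49 and 71, and Ncr1 (NKp46) 43 and 58. Just outside the rule, 16 control and 13 metastatic cells had 1 marker, and their pooled Trbc2 was 0 and 45.3 CPM and their Gzma 0 and 227 CPM. Cells just inside it with exactly 2 markers numbered 2 and 6, with Trbc2 at 784 and 1070 CPM and Gzma at 10031 and 3577 CPM. A further 6 control and 7 metastatic cells with at least 2 markers had 2 endothelial genes, and 10 and 14 had all 3. The cells with all 3 had median depths of 10578 and 10048 UMIs, above those of the members. No cell failed the rule on Cd79a alone, and 1 control cell, with 464 genes, failed it only on the minimum of 500 genes.

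The libraries shared cell barcodes. All 31 control and 40 metastatic member barcodes had at least 1 UMI in the other library, as did 99.99% and 100% of all cells. For 8 and 21 members (25.8% and 52.5%) it was at least 50 UMIs, against 38.9% and 53.6% of all cells. The highest member values were 140 and 205. No member barcode was a cell in both libraries, against 20 of all cells. A doublet score marked 2 control and 1 metastatic members, and these were kept.

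Outside the rule, the genes that set members furthest above endothelial cells were those of killing, NK receptors and T cell signaling. Ccl5, a chemokine of killer lymphocytes (mm10 chr11:83525778-83530518), was at 6182 CPM in control and 8434 CPM in metastatic members, against 1.41 and 3.23 CPM in endothelial cells. Gzma (granzyme A, chr13:113093825-113100981) was at 3777 and 4837 CPM against 0.748 and 1.08 CPM. Ms4a4b, a membrane protein of T and NK cells, was at 1660 and 1218 CPM against 0.665 and 0.673 CPM. Each transcript gives 1 tag at its 3' end, so these levels do not scale with transcript length.

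Among the genes with the highest ratio to endothelium were also Klra4, Gzmb, Gm2682, Klra9, Klrk1, Klre1, Txk, Il2rb, Klrb1c, Prf1 and Cd8b1. The smaller of the log2 ratios of the 2 libraries ran from 10.70 for Cd8b1 to 13.21 for Klra4. In B cells (43 and 44 cells) and myeloid cells (66 and 77 cells) of the same sort, these 14 genes were below 30 CPM, Ms4a4b being highest in control B cells at 29.6 CPM. The endothelial, B and myeloid classes left out cells with UMIs of at least 2 of the rule genes. Low levels of T and NK genes in these classes, and the ratios to endothelium, are therefore partly set by that choice. In droplet data free RNA also gives UMIs to cells that do not express a gene. Among endothelial cells, at similar depth, 0.467% of control and 0.616% of metastatic cells had a Gzma UMI, 0.830% and 1.35% a Ccl5 UMI, 0.221% and 0.272% an Il7r UMI, 0.130% and 0.0860% a Cd8b1 UMI, and 0.0130% and 0.0287% a Cd4 UMI. These rates are partly set by the same choice of cells and do not measure free RNA alone.

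**Figure D1:**
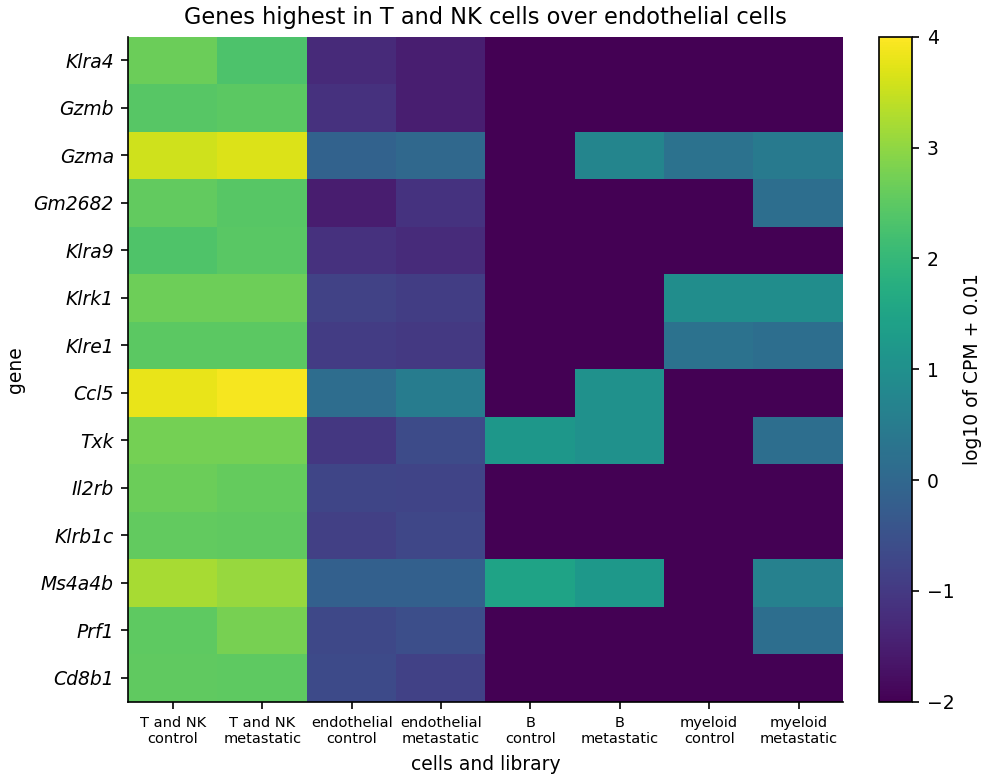
Heat map of 14 genes among those with the highest ratio of T and NK to endothelial CPM (rows) in T and NK, endothelial, B and myeloid cells of each library (columns), colored by log10 of CPM + 0.01. Both T and NK columns stand above all others, with Ccl5 and Gzma brightest. The other columns left out cells with UMIs of at least 2 of the rule genes, which partly sets this contrast.

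Among the T cell receptor chains, Trac was nearly absent from the NK set, and the beta chains were not. Trac, Trbc1 or Trbc2, the constant regions, had UMIs in 18 of 18 control and 23 of 24 metastatic Cd3-bearing cells. The cell without them was the one rich in MHC class II RNA. Trac itself had 46 control UMIs in Cd3-bearing cells and 0 in the NK set, and 58 and 1 in the metastatic library. At least 1 of the 3 chains had a UMI in 9 of 13 control and 14 of 16 metastatic NK set cells as well. Trbc1 and Trbc2 there had 14 and 6 UMIs in the control and 19 and 16 in the metastatic library.

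**Figure D2:**
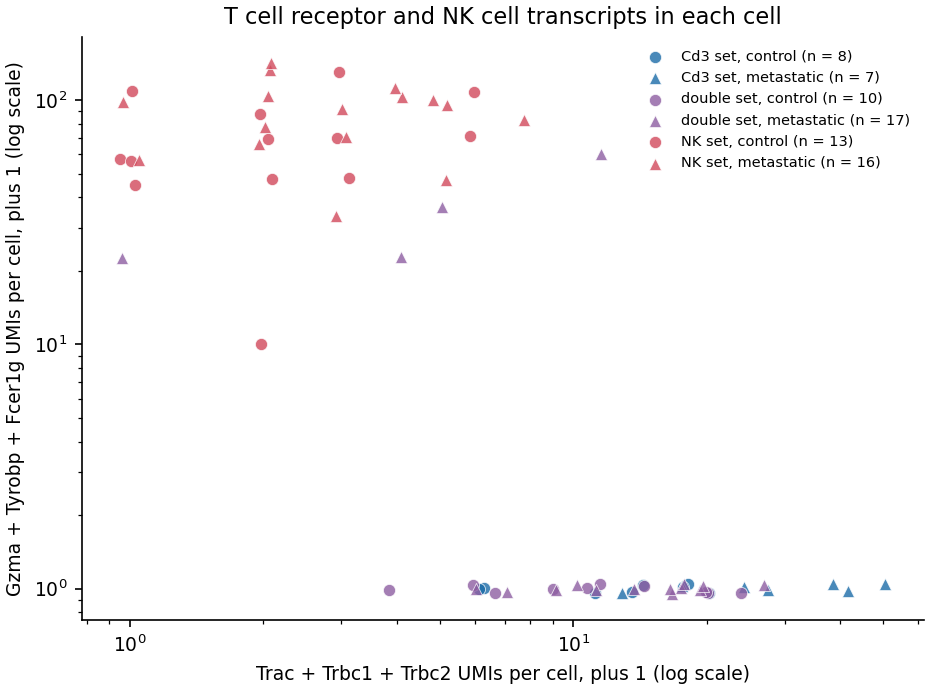
Each point is 1 of the 71 cells, with Trac + Trbc1 + Trbc2 UMIs plus 1 on the x axis and Gzma + Tyrobp + Fcer1g UMIs plus 1 on the y axis, both on log scales and shifted slightly to part overlapping cells. All 29 NK set cells lie high on the y axis, and the Cd3-bearing cells lie at its base except for 4 metastatic cells of the double set.

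The coreceptors differed between the Cd3 and double sets, which the NK genes of the rule had separated. Cd8a or Cd8b1, chains of the killer T cell coreceptor, had UMIs in 9 of 10 control and 10 of 17 metastatic double set cells, and in 0 of 8 and 0 of 7 Cd3 set cells. With 0 of 8 and 0 of 7, the upper exact limits are 36.9% and 41.0%. Cd4, of helper T cells, had UMIs in 2 of 8 and 4 of 7 Cd3 set cells and in 0 of 10 and 3 of 17 double set cells. No cell had both. Neither coreceptor was detected in 7 of 18 control and 7 of 24 metastatic Cd3-bearing cells, and Cd4 was sparse, with 3 and 13 UMIs in all.

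Most Cd3-bearing cells carried transcripts known from naive and circulating T cells. Il7r, the receptor for the survival cytokine IL-7, was found in 17 of 18 control and 22 of 24 metastatic cells, with a low, median and high of 0, 6.5 and 31 UMIs per control cell and 0, 9.5 and 20 per metastatic cell. Ccr7, a chemokine receptor that brings T cells into lymph nodes, had UMIs in 14 of 18 control and 14 of 24 metastatic cells, with 0, 1.5 and 9 UMIs per control cell and 0, 2 and 13 per metastatic cell (52 and 88 UMIs in all, log2 ratio 0.24, -0.27 to 0.77). The ranges of these genes overlapped between the libraries throughout.

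Lef1, a transcription factor of the naive state, had 69 UMIs in 14 of 18 control and 56 UMIs in 17 of 24 metastatic Cd3-bearing cells, a log2 ratio of metastatic to control CPM of -0.82 (-1.35 to -0.29). Its partner Tcf7 had 51 and 59 UMIs, a log2 ratio of -0.30 (-0.87 to 0.26). Klf2, which keeps T cells in circulation, had 143 and 277 UMIs, a log2 ratio of 0.44 (0.14 to 0.74). Over the members, 11 of the 12 genes of the naive and circulating list reached the minimum of 50 UMIs for comparison. Of these, 0 were at least 2-fold higher and 0 at least 2-fold lower in the metastatic library, and 2 were above 0 (Ccr7 and Klf2), with a median log2 ratio of -0.17.

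Trbc1 was higher in the metastatic Cd3-bearing cells, where it had 118 UMIs in 15 of 24 cells against 37 UMIs in 9 of 18 control cells, a log2 ratio of 1.16 (0.61 to 1.73). The values per cell were 0, 0.5 and 12 UMIs (low, median, high) in the control and 0, 2 and 25 in the metastatic library, so the ranges overlapped. Trbc2 stood at 134 and 226 UMIs, a log2 ratio of 0.24 (-0.08 to 0.56). Each T cell uses 1 of these constant regions with its beta chain, and Trbc1 and Trbc2 are near-identical paralogs whose reads the counting could split, so their division is uncertain.

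Regulatory and gamma delta T cells were few. Foxp3, the factor of regulatory T cells, was detected in 2 control cells of the Cd3 set with 2 UMIs each, and in 0 of 24 metastatic Cd3-bearing cells, with an upper exact limit of 14.2%. Over the members, Ctla4 had 20 control and 4 metastatic UMIs, Ikzf2 (Helios) 16 and 2, and Il2ra (CD25) 6 and 0. A single control cell of the double set held 13 UMIs of Trdc, the gamma delta receptor constant chain, with 1 of Cd8b1, and 2 metastatic Cd3-bearing cells held Trdc UMIs, 1 and 2. None of the 10 genes of the gamma delta list and none of the 10 of the helper and regulatory list reached 50 UMIs.

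Ccl5 was higher in Cd3-bearing cells of the metastatic library, a log2 ratio of 6.02 (4.78 to 7.65) carried by a few cells. In control Cd3-bearing cells it had 5 UMIs in all, 4 in 1 cell and 1 in another. In the metastatic ones it had 463 UMIs in 7 of 24 cells, with 193, 94, 73, 62, 23, 17 and 1 UMIs. At least 10 UMIs were present in 6 of 24 cells (25.0%, 9.77 to 46.7%) and in 0 of 18 (upper exact limit 18.5%), so the intervals overlap. Of these 6 cells, 3 had Cd8a or Cd8b1 and 0 had Ccr7.

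These 6 cells were not alike. The cell with 193 Ccl5 UMIs had 59 of Gzma, 26 of Nkg7, 17 of Cd8b1 and 22 of Lgals1, and 0 of Ccr7, Lef1 and Il7r. The cell with 73 had 36 of Gzma, 7 of Nkg7, 4 of Cd8a and 3 of Cd8b1. The cell with 94 resembled the NK set, with 8 UMIs of Ncr1, 19 of Tyrobp, 14 of Klra7 and 8 of Klra3, 0 of Gzma, Trac and Trbc2, 3 of Trbc1 and 3 of Cd3g as its sole Cd3 gene. Cells with 23 and 17 had Cd4, with 2 and 1 UMIs. Gzma itself was in 0 of 18 control and 2 of 24 metastatic Cd3-bearing cells.

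The NK set carried the transcripts of killing throughout. All 13 control and 16 metastatic cells had UMIs of Gzma and of Ccl5, and each had Tyrobp or Fcer1g, the adaptor chains that signal for NK receptors. No NK set cell had a UMI of Cd4, Cd8a or Cd8b1. The lowest values came from 1 control cell with 1118 UMIs in all, which had 8 UMIs of Gzma, 1 of Ccl5, 1 of Fcer1g and 0 of Tyrobp. Among genes outside the rule, those highest in the NK set over the Cd3 set were Ccl5, Gzma, Tyrobp, AW112010, Fcer1g, Irf8, Klrk1 and Klrb1c. Irf8, a transcription factor also used by dendritic cells, had 88 and 143 UMIs in the NK set and 0 in the Cd3 set.

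In the other direction the genes highest in the Cd3 set over the NK set were Gm12840, Ltb, Trbc2, Ifi27l2a, Trac, Ms4a6b, Smc4 and Il7r. Ltb (lymphotoxin beta) had 66 UMIs in control and 66 in metastatic Cd3-bearing cells, against 3 and 0 in the NK set. Ifi27l2a, an interferon-inducible gene, had 38 and 75 UMIs in Cd3-bearing cells and 0 and 0 in the NK set. Il7r had 13 UMIs in 1 control NK set cell and 0 in every other NK set cell.

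Of the 12 cytotoxic genes, 7 were compared in the NK set. Prf1 was at least 2-fold higher in the metastatic library, 0 were as much lower, 4 were above 0 and the median log2 ratio was 0.17. Gzma had a low, median and high of 8, 43 and 107 UMIs per control cell and 12, 64.5 and 119 per metastatic cell, with 644 and 1021 UMIs in all (log2 ratio 0.38, 0.24 to 0.53). Prf1 (perforin, chr10:61297833-61304680) had 0, 5 and 7 UMIs per control cell and 3, 7 and 17 per metastatic cell, with 53 and 130 UMIs in all, or 868 and 1749 CPM (log2 ratio 1.01). The ranges overlapped for both genes. Gzmb stood at 46 and 63 UMIs (0.17, -0.40 to 0.75), and Serpinb9, an inhibitor of granzyme B, at 80 and 77 (-0.34, -0.81 to 0.13).

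Eomes, a transcription factor that sustains mature NK cells, had 18 UMIs in 10 of 13 control and 44 UMIs in 14 of 16 metastatic NK set cells, a log2 ratio of 1.01 (0.19 to 1.88). Tbx21 (T-bet) had 9 and 12 UMIs. Effector cytokines were sparse. Ifng, the interferon gamma gene, had 0 control and 12 metastatic UMIs over all members, and Xcl1, a chemokine that draws dendritic cells, 2 and 16. Tnf, Il2, Csf2 and Lta had 0 in both libraries. Ccr2, a chemokine receptor, went the other way in the NK set with 29 and 10 UMIs.

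Genes at least 2-fold higher in the metastatic NK set numbered 13 of 357 compared (3.64%), and genes at least 2-fold lower 4 of 357 (1.12%). Of the 13, 3 were globin genes that came almost wholly from 1 cell. The other 10 were Lgals1, S100a6, Klra3, Rgs2, Prrc2c, Dusp2, Ccnd2, Cxcr4, Prf1 and Eomes. Without the globin-rich cell, 11 of 335 genes were at least 2-fold higher and 2 lower. The 4 lower genes with it were Celf2, Luc7l2, Sec62 and Sp100, led by Celf2, an RNA-binding protein, with 42 and 21 UMIs (log2 ratio -1.28, -2.11 to -0.50).

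Lgals1 (galectin-1) had 37 control and 163 metastatic UMIs in the NK set, a log2 ratio of 1.86 (1.33 to 2.41), and 1 metastatic cell held 59 of them. The values per cell were 0, 3 and 6 in the control and 2, 4 and 59 in the metastatic library. S100a6, a calcium-binding protein, had 15 UMIs in 5 of 13 and 56 UMIs in 13 of 16 cells (1.62, 0.77 to 2.55). Rgs2, which dampens G protein signaling, had 14 UMIs in 8 and 45 in 12 cells (1.40, 0.51 to 2.38). All 3 belong to the memory and residency list, of which 6 genes were compared in the NK set, 3 were at least 2-fold higher and 0 lower, and the median log2 ratio was 1.12. In endothelial cells of the same libraries Lgals1 and S100a6 had log2 ratios of -0.22 and -0.27 and Rgs2 of 0.44.

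**Figure D3:**
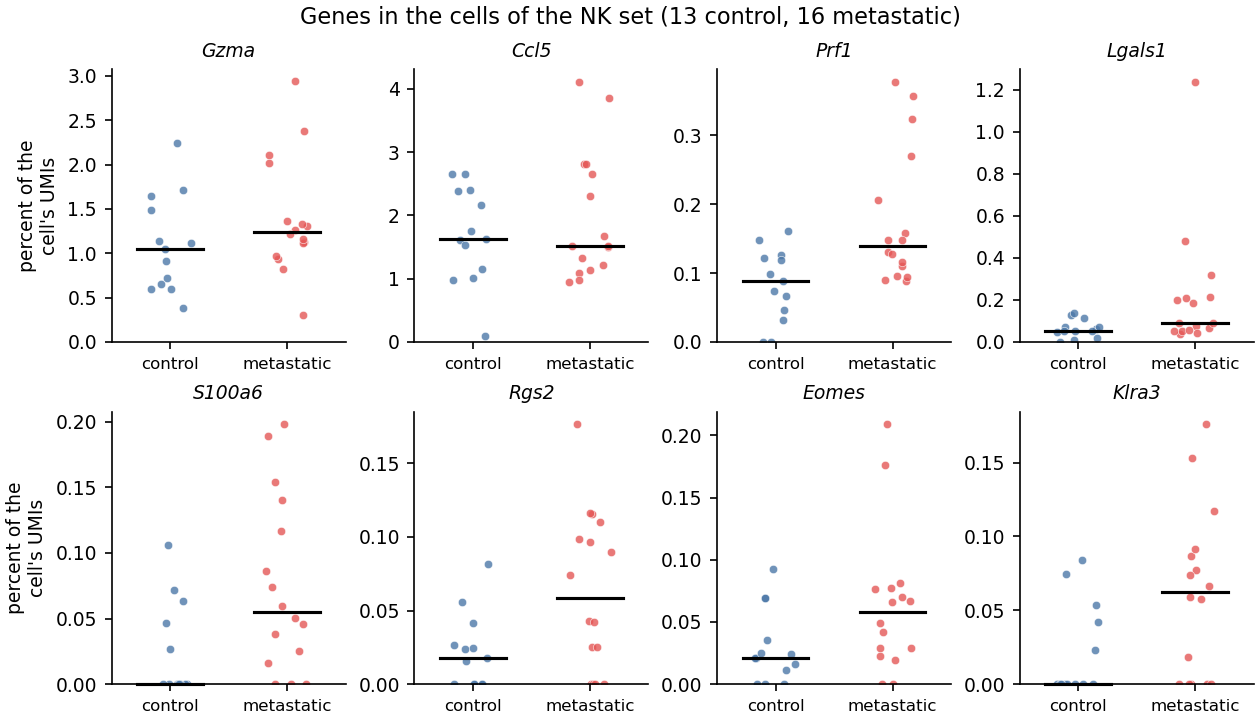
Share of each cell's UMIs (y axis, percent) taken by 8 genes in the 13 control (blue) and 16 metastatic (red) cells of the NK set, 1 point per cell with a black bar at the median over cells. Points of both libraries overlap in every panel, and the median of Prf1 is 0.0883% in the control and 0.139% in the metastatic library.

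Ly49 receptors, the Klra genes, recognize MHC class I and are switched on independently in each NK cell, so that cells carry different mixtures. Of 6 Klra genes, the control NK set cells expressed a low, median and high of 1, 3 and 4, and the metastatic ones 1, 3 and 5. The 13 control cells showed 12 different combinations and the 16 metastatic cells 11. Klra4 (Ly49D, an activating receptor, chr6:130043731-130067271) was present in 6 of 13 control cells with 7 to 21 UMIs and in 0 UMIs in the other 7. In the metastatic library it was present in 7 of 16 cells with 20, 9, 6, 6, 4, 3 and 1 UMIs. No control cell had between 1 and 6 UMIs of Klra4.

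The sum over the 6 genes was 208 control and 214 metastatic UMIs, or 3405 and 2879 CPM of the NK set. Within it, Klra4 had 77 and 49 UMIs (log2 ratio -0.94, -1.48 to -0.40) and Klra8 (Ly49H) 59 and 42 (-0.77, -1.38 to -0.18), while Klra3 (Ly49C) had 13 and 45 (1.51, 0.59 to 2.52) and Klra9 (Ly49I) 37 and 66 (0.55, -0.05 to 1.17). Klra3 was detected in 5 of 13 and 11 of 16 cells. These genes lie side by side on chromosome 6 and are close in sequence, so reads may have been split among them, and their single values are uncertain.

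**Figure D4:**
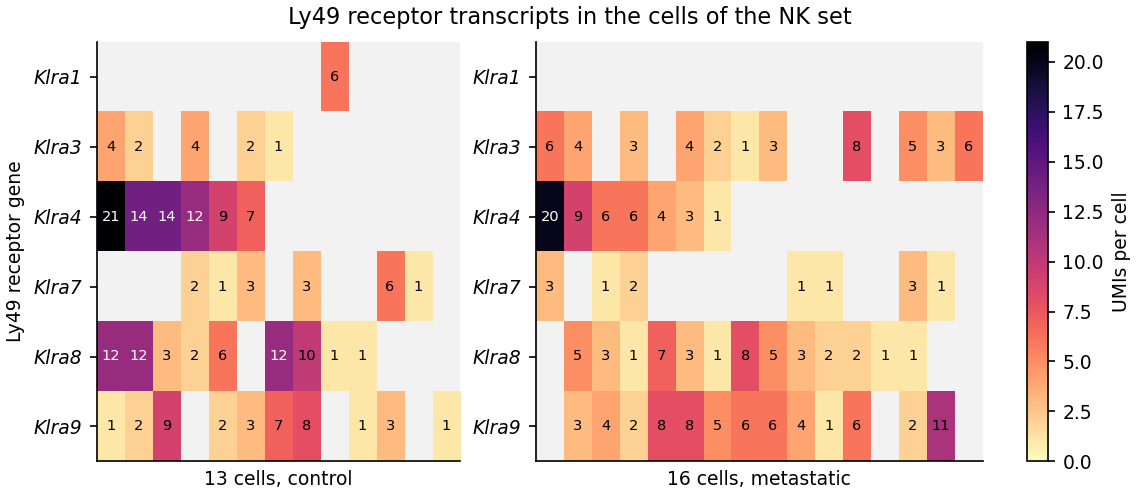
UMIs of 6 Klra genes (rows) in each cell of the NK set (columns), control on the left and metastatic on the right, ordered by Klra4 and then Klra8, with blank fields for 0 UMIs. Cells hold different mixtures, and Klra4 is either at 7 UMIs or more or at 0 in the control cells.

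Klrk1, Klrb1c and Klre1, which encode C-type lectin receptors of NK cells, were level between the libraries. In the NK set Klrk1 (NKG2D) had 73 and 90 UMIs (log2 ratio 0.02, -0.44 to 0.48), Klrb1c (NK1.1) 63 and 79 (0.04, -0.45 to 0.54) and Klre1 53 and 60 (-0.10, -0.66 to 0.46). Klrc2 (NKG2C) stood lower at 46 and 28 UMIs (753 and 377 CPM). Tyrobp had 129 and 215 UMIs (0.45, 0.13 to 0.78). Over all members, 15 of the 21 genes of the NK lineage list were compared. Klra3 and Eomes were at least 2-fold higher and Klra4 at least 2-fold lower, 8 were above 0, and the median was 0.01.

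Over all members, 1072 genes reached 50 UMIs in the libraries combined. Of these, 23 (2.15%) were at least 2-fold higher and 3 (0.28%) at least 2-fold lower in the metastatic library, and the median log2 ratio was -0.003 with 49.9% above 0. Of the 23, 11 had at least 50% of their metastatic UMIs in 1 cell. Without both odd cells, 1006 genes were compared, 11 were at least 2-fold higher and 4 lower, and 53.1% were above 0. In Cd3-bearing cells 17 of 609 (2.79%) were at least 2-fold higher and 1 of 609 (0.164%) lower.

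The 17 genes higher in Cd3-bearing cells included 6 for which the cell rich in MHC class II RNA held most UMIs (Cd74, H2-Aa, H2-Ab1, H2-Eb1, Ccl17 and Cst3) and Jun and Id2, with 54.8% and 49.0% in it. Gzma and Ccl5 came from the few cells described above. The other 7 were AW112010, Ahnak, Clec2d, Hsp90aa1, Calr, Itgb1 and Trbc1. AW112010, an interferon-inducible transcript of activated lymphocytes, had 13 UMIs in 8 of 18 control and 69 UMIs in 16 of 24 metastatic cells (log2 ratio 1.89, 1.03 to 2.87). It was lower in the metastatic Cd3 set, with 5 and 2 UMIs (121 and 53.1 CPM). In the double set it had 8 and 67 UMIs (117 and 564 CPM). The double set made up 10 of the 18 control and 17 of the 24 metastatic Cd3-bearing cells. Ahnak, a large scaffold protein, had 17 UMIs in 6 and 69 in 13 cells (1.51, 0.72 to 2.37), and in the NK set 85 and 95 (-0.12). The chaperone Hsp90aa1 had 16 UMIs in 10 and 55 in 19 cells (1.27, 0.44 to 2.17). Top2b, a DNA topoisomerase, was the lower gene with 38 and 27 UMIs (-1.01, -1.78 to -0.26). Without both odd cells 8 of 559 genes were at least 2-fold higher and 2 lower.

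The memory and residency list in Cd3-bearing cells rested on that cell. Its median was 0.57 over 6 compared genes, with 4 above 0, and -0.21 over 5 genes, with 2 above 0, without it. A control cell of the double set with Cd8a and Cd8b1 and without Ccr7 held the most S100a4 of any Cd3-bearing cell, 31 UMIs, together with 17 of S100a6 and 28 of Lgals1.

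Cd74, H2-Aa, H2-Ab1, H2-Eb1 and Ccl17 were among the 23, and 98.0 to 100% of their metastatic UMIs came from the cell rich in MHC class II RNA. Cst3 had 89.1% and Jun 50.4% of theirs in the same cell. The globin genes Hbb-bs, Hbb-bt, Hba-a1 and Hba-a2 had 81.0 to 99.5% in the cell rich in globin RNA. Without the respective cell the log2 ratio of Cd74 was -0.34, that of Cst3 -0.34 and that of Hbb-bs -0.48, against 7.22, 2.76 and 4.22 with it.

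Some genes had log2 ratios of 1 sign in the Cd3 set and the NK set and an interval over all members that excluded 0. Only the sign was asked for within each set, and UMIs there were often few. The 10 highest were H2-Ab1 (nearly all from 1 cell and at 1.247 without it, on 1 control UMI), Jmjd1c, Calr, Cd9, Ndufb8, Kctd12, Nudc, Rgs2, Tpm4 and Snx3. In the Cd3 set Jmjd1c had 4 control and 4 metastatic UMIs, Kctd12 3 and 3, Nudc 0 and 2 and H2-Ab1 0 and 1. Calr had 3 and 11 there and Rgs2 8 and 25. In the double set Jmjd1c had 4 and 26. Kctd12 was at 1.07 with all cells, 0.42 without the cell rich in MHC class II RNA and 0.0667 without barcodes that had 50 UMIs in the other library, where Jmjd1c was at 0.53 against 1.39. Calr (calreticulin, an endoplasmic reticulum chaperone) had 17 UMIs in 12 control and 59 in 24 metastatic members, a log2 ratio of 1.36 (0.56 to 2.23). Cd9, a tetraspanin that platelets and endothelium also express, had 17 and 54 UMIs (1.23, 0.42 to 2.11). Rgs2 had 33 and 91 UMIs (1.03, 0.44 to 1.65). The 10 lowest were Itsn2, Sltm, Add1, Tmem59, Zfp292, Cd27, Top2b, Fgfr1op2, Lnpep and Mxd4. Itsn2, an endocytic scaffold, had 35 UMIs in 18 and 18 in 11 members (-1.40, -2.30 to -0.54), and Cd27, a costimulatory receptor, 44 and 31 UMIs (-0.94, -1.65 to -0.25).

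Of the 21 early activation genes, 12 were compared and all 12 were above 0, with a median of 0.43, 1 at least 2-fold higher (Jun) and 0 lower. Without both odd cells 9 of 12 were above 0, 0 were at least 2-fold higher and the median was 0.28. Junb had 179 and 342 UMIs (log2 ratio 0.50, 0.23 to 0.77), Jund 151 and 285 (0.48, 0.19 to 0.77) and Ier2 71 and 148 (0.62, 0.21 to 1.05). Cd69, an early activation marker that holds T cells in tissue, had 29 and 48 UMIs (0.29, -0.40 to 1.01). In endothelial cells the same list had a median of 0.016 over 20 compared genes.

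Heat shock genes gave 6 of 7 above 0, with a median of 0.45 and 0 past 2-fold either way. Hsp90ab1 had 158 and 293 UMIs (0.45, 0.17 to 0.74) and Hspa8 142 and 246 (0.36, 0.05 to 0.66). The endothelial median of this list was 0.22 over 12 compared genes, against the 7 compared in members. Without both odd cells the members' median was 0.43.

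Interferon-inducible genes were close to all genes over the pooled members. Of 26, 6 were compared, 4 were above 0, 0 were past 2-fold and the median log2 ratio was 0.10, or 0.22 without both odd cells. In the NK set alone the list summed to 2128 control and 1547 metastatic CPM (log2 ratio -0.46, -0.84 to -0.09). In Cd3-bearing cells the sums were 2477 and 2807 CPM (0.18, -0.04 to 0.40). In endothelial cells 24 of 25 compared genes were above 0 with a median of 0.37, beside 56.4% above 0 and a median of 0.024 over all 12810 genes compared there. Irf1 was at a log2 ratio of 0.08 in members and 0.30 in endothelium, and Ifi47, an interferon-induced GTPase, at -0.22 and 0.70. The MHC class I list had 3 of 8 above 0 and a median of -0.07 in members, against 12 of 13 and 0.31 in endothelium. H2-K1 had 403 and 550 UMIs in members (0.01, -0.18 to 0.20). The difference between the cell classes was not tested.

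The cytokine receptor and JAK-STAT list gave 1 of 7 compared genes above 0, with a median of -0.20 and 0 past 2-fold. Without both odd cells the median was -0.37 over 6 genes. In endothelium it was 0.20 over 25 compared genes, so these medians cover different genes. Jak1, a kinase shared by many cytokine receptors, had 181 and 162 UMIs (-0.60, -0.91 to -0.28). Socs3, a feedback inhibitor, was the gene above 0, with 18 and 33 UMIs. Pim3, a kinase that the study followed in endothelium, had 11 and 21 UMIs in members (64.5 and 91.0 CPM, below the comparison minimum), and Bcl3, a nuclear regulator of NF-kappaB, 3 and 3.

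Targets of glucocorticoids had 1 of 4 above 0 and a median of -0.26 in members. In endothelium the median was -0.55 over 12 compared genes, most of them not compared in members. Txnip, a thioredoxin inhibitor, had 127 and 129 UMIs (-0.41, -0.78 to -0.05), with an endothelial log2 ratio of -0.62, and Tsc22d3 (GILZ) 72 and 77 (-0.34, -0.82 to 0.14), with -0.70.

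Among the remaining lists, the cytotoxic list had 7 of 9 compared genes above 0 (median 0.34, or 0.26 without both odd cells). The memory and residency list had 6 of 8 above 0 (median 0.56, or 0.37). Its genes Rgs2 and Lgals1 were at least 2-fold higher and 0 were lower, or 1 lower without both odd cells. Lgals1 was at 0.33 where the Cd3 and NK sets were weighted the same and the double set was left out. S100a4, the member with the lowest log2 ratio in this list, stood at -0.44. The trafficking list had 6 of 10 above 0 (median 0.27), led by Itgb1, an integrin subunit, with 62 and 131 UMIs (0.64, 0.20 to 1.10). The T lineage list had 6 of 13 above 0 (median -0.05). Of the 14 cytokine genes 3 were compared, Ccl5, Ccl4 and Ltb, with a median of 0.45. Cd27 was the sole checkpoint gene and Tubb5, at 25 and 39 UMIs, the sole proliferation gene to be compared. Pdcd1, Lag3 and Havcr2, receptors of exhausted T cells, had 0 UMIs in both libraries. Mki67 had 0 and 3, and all 3 were in the cell rich in MHC class II RNA. No clock gene or metallothionein reached 50 UMIs, and Mt1 had 1 and 31, of which 26 were in the cell rich in MHC class II RNA.

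**Figure D5:**
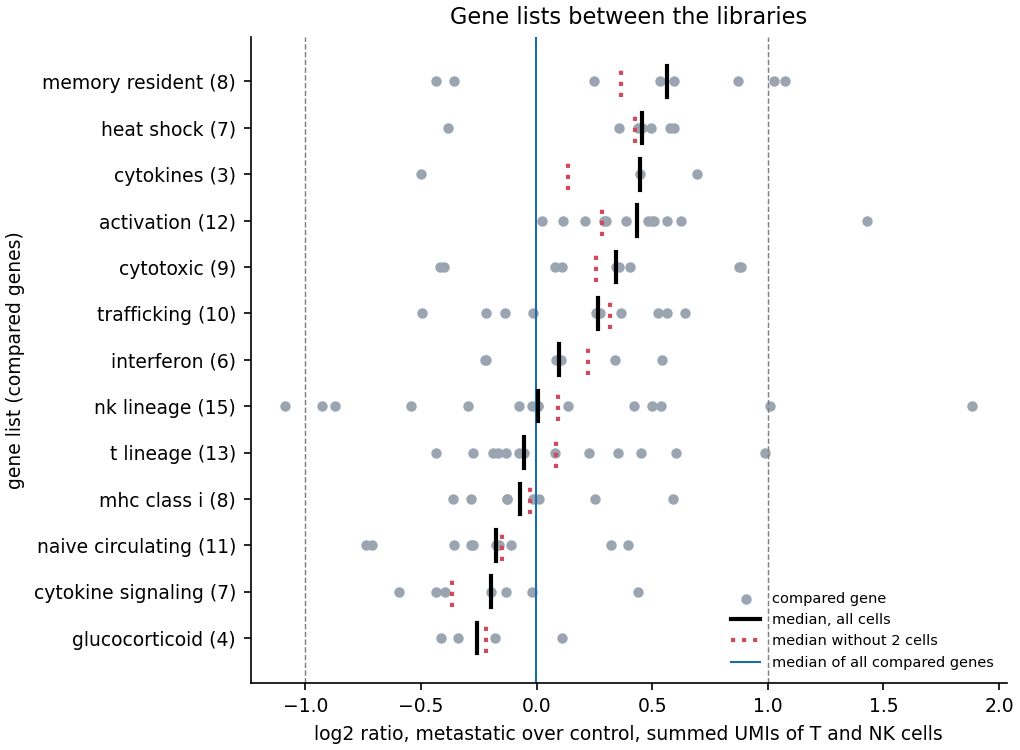
Log2 ratio of metastatic to control CPM (x axis) for each compared gene of 13 lists (rows, number compared in brackets) over the summed UMIs of all members, with the list median for all cells (black) and without the 2 odd cells (red dots), the median of all compared genes (blue) and 2-fold limits (dashed). Activation genes lie at or above 0, medians run from -0.26 to 0.56, and few genes pass the 2-fold limits.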

How the data were processed

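Per the labels, PECAM1+ cells of digested lung were loaded on 10x Genomics 3' kits, and the authors made UMI counts with Cell Ranger on mm10 (matrix headers name software 3.1.0). The deposited unfiltered counts of 6794880 barcodes per library (67929614 control and 64733724 metastatic UMIs) were used. Cells had 500 to 5000 genes and under 20% mitochondrial UMIs. UMIs were summed over cells and scaled to CPM. Ratios had exact conditional binomial, CPM exact Poisson and shares Clopper-Pearson 95% intervals. Genes with at least 50 UMIs were compared, and past 2-fold counted as called. These intervals cover counting error only. The kit version is not given here, because the labels and the barcode list differ on it. Positions are GENCODE M21 (GRCm38).

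The text names rule genes, list members (highest levels and those past 2-fold), the 10 highest and 10 lowest genes whose interval excludes 0 with 1 sign in both sets, the 15 highest over endothelium (1 is not reported here) and 8 per set between sets. Other genes named (such as Ifng, Foxp3, Trdc, Pim3 and genes past 2-fold in 1 set) were chosen after their values were seen. So were the pooling of Cd3-bearing cells, the Ccl5 limit of 10 UMIs, the Ly49 comparison and the odd cells. Members and lists were chosen with earlier results of these data known. Doublets were scored against simulated doublets and kept. Alternatives changed 1 choice at a time, except that 1 subtracted free RNA and left out a cell. Weighting the Cd3 and NK sets the same also left out the double set. Python 3.11.15, numpy 2.4.6, scipy 1.17.1, pandas 2.3.3, scikit-learn 1.9.0 and edgeR 4.0.16 (TMM factors alone) were used, and the ratio code was tested on simulated data.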

Additional observations from a re-analysis of the deposited data

How the results depend on the processing

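No paired analysis was possible because each group had 1 library. The share of members was 0.201% (control) and 0.346% (metastatic) when no endothelial gene was allowed, and it moved by less than its interval under the other alternatives run. The number of genes at least 2-fold higher (23 of 1072) was 8 with 3 of 6 markers, 10 with a minimum of 100 UMIs and 986 with no filter. It was 39 of 1003 with the Cd3 and NK sets weighted the same, which left out the double set (10 control and 17 metastatic cells). Without the cell rich in MHC class II RNA it was 13, and without both odd cells 11 of 1006. With free RNA subtracted and the globin-rich cell left out together it was 81. The number lower (3) was 10 with no endothelial gene, 6 without barcodes that had 50 UMIs in the other library, 1249 with no filter and 1 with 100 UMIs. It was 10 with each cell weighted the same, 40 with the sets weighted the same and 15 with free RNA subtracted and the globin-rich cell left out together. No filter compared every gene with at least 1 UMI in each library. The number compared also changed with the filter and the cells used, so these counts are not shares of 1 common number. The Cd3-bearing share of metastatic members was 36.8% without the shared barcodes.

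Medians of lists moved as follows. With 3 of 6 markers activation was 0.15 and cytokines 0.0716. With no endothelial gene T lineage was 0.18, cytokines 0.92 and trafficking 0.0437. Without the shared barcodes T lineage was 0.49, NK lineage 0.30, memory 1.12, cytotoxic 0.70, cytokine signaling -0.53 and MHC class I 0.15. With no filter cytokines were -0.33 and trafficking -0.13. With 100 UMIs memory was 0.87 and trafficking -0.0769. With the sets weighted the same T lineage was 0.27, interferon -0.28 and glucocorticoid -0.63. Without both odd cells cytokines were 0.14. With free RNA subtracted and the globin-rich cell left out together cytokine signaling was -0.50 and heat shock 1.01. Under all alternatives, 184 list medians stayed within the counting error of the reported median and 21 did not.

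Named genes kept their sign in 462 of 487 values, but 30 of these lay outside the gene's counting interval. Of 359 values for the 24 genes past 2-fold over all members with UMIs in both libraries, 281 stayed past it, 53 kept the sign and were short of it, and 25 changed sign. Without the shared barcodes Jun was 0.13, Kctd12 0.0667, Jmjd1c 0.53 and Tmem59 -0.14. With no endothelial gene Eomes was 0.48, Nudc 0.32 and Rgs2 0.67, and with the sets weighted the same Lgals1 was 0.33. Without the cell rich in MHC class II RNA Jun was 0.52, Kctd12 0.42 and H2-Ab1 1.247. The 25 that changed sign were of Cd74, Cst3, Jun and globin genes. With 3 of 6 markers Cd74 was -0.25, Cst3 -0.38, Hba-a1 -0.25, Hba-a2 -3.42, Hbb-bs -0.56 and Hbb-bt -1.25. With no endothelial gene Hba-a1 was -0.0601, Hba-a2 -3.49, Hbb-bs -0.50 and Hbb-bt -1.42. Cst3 was -0.13 without the shared barcodes, and Cst3 was -0.39 and Jun -0.21 with the sets weighted the same. Cd74 and Cst3 were -0.34 and -0.34 without the cell rich in MHC class II RNA. Hba-a1 was -0.40, Hba-a2 -3.65, Hbb-bs -0.48 and Hbb-bt -1.31 without the cell rich in globin RNA. Without both, Cd74 was -0.30, Cst3 -0.43, Hba-a1 -0.36, Hba-a2 -3.55, Hbb-bs -0.47 and Hbb-bt -1.21. The causes were not tested, other than that leaving out a cell removes its UMIs. The planned free RNA subtraction gave no value, because the estimated share in metastatic members was 258.9%. The estimate was 26.7% in control members, and 15.8% in metastatic members without the globin-rich cell. The alternative without that cell was chosen, like those without odd cells, after seeing the data. Counts of a few UMIs per cell limit every ratio, and the spread between mice is unknown.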
